A study of Mus musculus with 6 samples.

Results

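Translation initiation and elongation factors were followed in poly(A) RNA sequencing of mouse aorta. The members were all protein-coding rows of the gene table whose symbol began with Eif or Eef and a digit, 71 of the 33919 genes in the table. A further 13 rows with such a symbol were not protein coding and were left out. The libraries fell into 2 groups of 3. One group carried the genotype label KO and was given Ang II (angiotensin II), a hormone that constricts vessels and thickens their walls. The other group was labelled WT and was also given Ang II, so that both groups share the hormone and no untreated aorta was analysed here. The series title names endothelial OTUD1, a deubiquitinating enzyme, and SMAD3, but the labels give the allele only as KO, and strain, age, Cre driver and hormone dose were not found in them. The design text speaks of separate mice, while the labels carry no animal identifier, so the tests below rest on the spread among libraries, which may be partly technical.

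Otud1 went against the label. It had 5.08, 5.20 and 5.51 FPKM in the libraries labelled KO, against 2.66, 3.37 and 3.13 FPKM in those labelled WT (FPKM are fragments scaled by gene length and library total). The log2 fold change was 0.63 (SE 0.124, adjusted p = 0.0039 by edgeR's quasi-likelihood test), so KO and WT below mean the libraries labelled KO and WT. Every direction below rests on those labels.

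Total counts were 65.3 M to 71.5 M per KO library and 62.3 M to 70.5 M per WT library, and those not from mitochondrial genes or nuclear copies of them were 23.0 M to 23.4 M and 17.3 M to 19.4 M. Summed markers of fast skeletal muscle fibres were at 16810 to 18630 FPKM in KO and 12330 to 13460 FPKM in WT libraries, and 8 of 11 rose. Summed smooth muscle markers were at 51.6 to 56.3 FPKM in KO and 159.6 to 176.2 FPKM in WT libraries, with 7 of 8 lower and Myocd, a defining regulator of smooth muscle, at 0 counts in all 3 KO libraries. Slow-fibre markers summed to 240.4 to 269.6 FPKM in KO and 363.9 to 421.2 FPKM in WT libraries (4 of 5 lower), and fibroblast markers to 34.0 to 34.8 and 87.8 to 100.9 FPKM (6 of 6 lower). Neutrophil markers summed to 34.2 to 41.0 FPKM in KO and 2.85 to 3.79 FPKM in WT libraries (4 of 6 higher), with Retnlg at 0 counts in all 3 WT libraries. Endothelial markers summed to 56.2 to 59.7 FPKM in KO and 47.4 to 50.7 FPKM in WT libraries (2 of 6 higher, 1 lower). Fat markers summed to 780.6 to 880.7 FPKM in KO and 661.4 to 738.3 FPKM in WT libraries (2 of 7 higher, 3 lower), but to 2310 to 2416 CPM in KO and 2384 to 2444 CPM in WT libraries, which overlap (CPM are counts scaled by TMM-adjusted library total, the scale of the count test). Macrophage markers summed to 48.1 to 53.0 FPKM in KO and 47.6 to 50.5 FPKM in WT libraries, but to 80.4 to 81.6 CPM in KO and 101.1 to 103.1 CPM in WT libraries, with all KO libraries below (3 of 6 lower). Libraries labelled aorta were thus far richer in skeletal muscle transcripts than in smooth muscle transcripts. Neuron and Schwann cell markers summed to 2.196 to 2.35 FPKM in KO and 1.599 to 3.37 FPKM in WT libraries (1 of 5 lower). Several of these marker sums separate the same groups as the results below, and their part in those results was not tested. In such bulk tissue, fewer cells of a type and less RNA per cell cannot be told apart.

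Protein synthesis starts when eIF2 brings the initiator tRNA to the small ribosomal subunit, eIF3 and the scanning factors hold that subunit on the messenger, and the eIF4F complex (the cap-binding protein eIF4E, the scaffold eIF4G and the helicase eIF4A) recruits it to the capped end. During elongation eEF1A carries each aminoacyl-tRNA to the ribosome, the eEF1B subunits reload eEF1A with GTP, and eEF2 moves the ribosome along. In mice, Eef1a1 serves most cells, while Eef1a2 is the form of adult skeletal muscle, heart and neurons, where it takes over after birth.

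The genes of a paralogue pair are alike enough that reads could be assigned wrongly, so 2 pairs are shown by the start of their coding sequences. The sequences are from GENCODE M21 on GRCm38, 5′ to 3′, with capitals at bases that differ within the pair. Eef1a2 lies at chr2:181147653-181157014 on the minus strand and Eef1a1 at chr9:78478449-78489151 on the minus strand; coding bases 1 to 150 are given.
Eef1a2: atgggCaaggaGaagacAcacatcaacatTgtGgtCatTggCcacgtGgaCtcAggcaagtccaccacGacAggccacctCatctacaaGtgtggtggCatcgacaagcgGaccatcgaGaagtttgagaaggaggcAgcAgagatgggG
Eef1a1: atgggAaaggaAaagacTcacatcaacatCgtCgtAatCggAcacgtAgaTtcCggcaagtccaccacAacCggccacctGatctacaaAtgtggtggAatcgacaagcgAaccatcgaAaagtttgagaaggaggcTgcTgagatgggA
The pair differed at 21 of these 150 bases. Over the aligned coding sequence 1108 of 1386 bases were identical (79.9%), and the longest run shared by their transcripts was 23 bases.

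Eif2s3y lies on the Y chromosome at 1010543 to 1028594 (plus strand) and Eif2s3x on the X chromosome at 94188707 to 94212709 (minus strand). Both encode the gamma subunit of eIF2, and coding bases 1 to 120 are given.
Eif2s3y: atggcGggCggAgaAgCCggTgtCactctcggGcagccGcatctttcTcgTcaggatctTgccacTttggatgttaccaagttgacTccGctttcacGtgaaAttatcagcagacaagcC
Eif2s3x: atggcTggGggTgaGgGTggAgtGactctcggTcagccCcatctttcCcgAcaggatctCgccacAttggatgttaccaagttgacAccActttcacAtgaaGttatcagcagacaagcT
The pair differed at 19 of these 120 bases, and 86.3% of the aligned coding bases were identical, with a longest shared run of 34 bases. Among the other pairs, Eif3j2 and Eif3j1 were 99.7% identical over aligned coding bases and shared a transcript run of 1107 bases, which leaves it unclear how reads were divided between these 2 genes. Identity was 85.6% for Eif1a and Eif1ax, 81.1% for Eif1b and Eif1, 78.0% for Eif4a2 and Eif4a1, 73.2% for Eif5a2 and Eif5a, and 65.5% for Eif4ebp1 and Eif4ebp2.

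Of the 71 members, 66 had counts high enough to test and 5 did not (Eif4e1b, Eif4ebp3, Eef1akmt3, Eif4a3l1 and Eif4a3l2). In the KO libraries 14 members were higher and 11 lower at an adjusted p under 0.05, or 21.2% and 16.7% of those tested. Over all 16620 tested genes the same rule called 11.5% higher and 10.5% lower. Members were mostly abundant, and abundant genes were called more often. Of the 66 tested members 50, and of all tested genes 5195, had a mean of at least 10 CPM. Of those 50 members 28.0% were higher and 18.0% lower, against 27.7% and 15.9% of all such genes. At a like level of expression the share of members called was therefore near that of other genes. The log2 fold changes ran from -0.83 to 0.77, with a median of 0.08 over members and -0.02 over all tested genes. Only 4 of the 25 called members differed by at least 1.5-fold, namely Eef1a2, Eif4ebp1, Eif2ak2 and Eef1akmt2. Of the called members 13 overlap another gene of the table. The KO libraries lay wholly above the WT libraries for 22 members and wholly below for 11, while 33 overlapped. Over all tested genes the KO libraries lay wholly above for 19.3% and wholly below for 19.4%. These shares were not computed at a like level of expression, so no excess among members can be read from them.

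**Figure D1:**
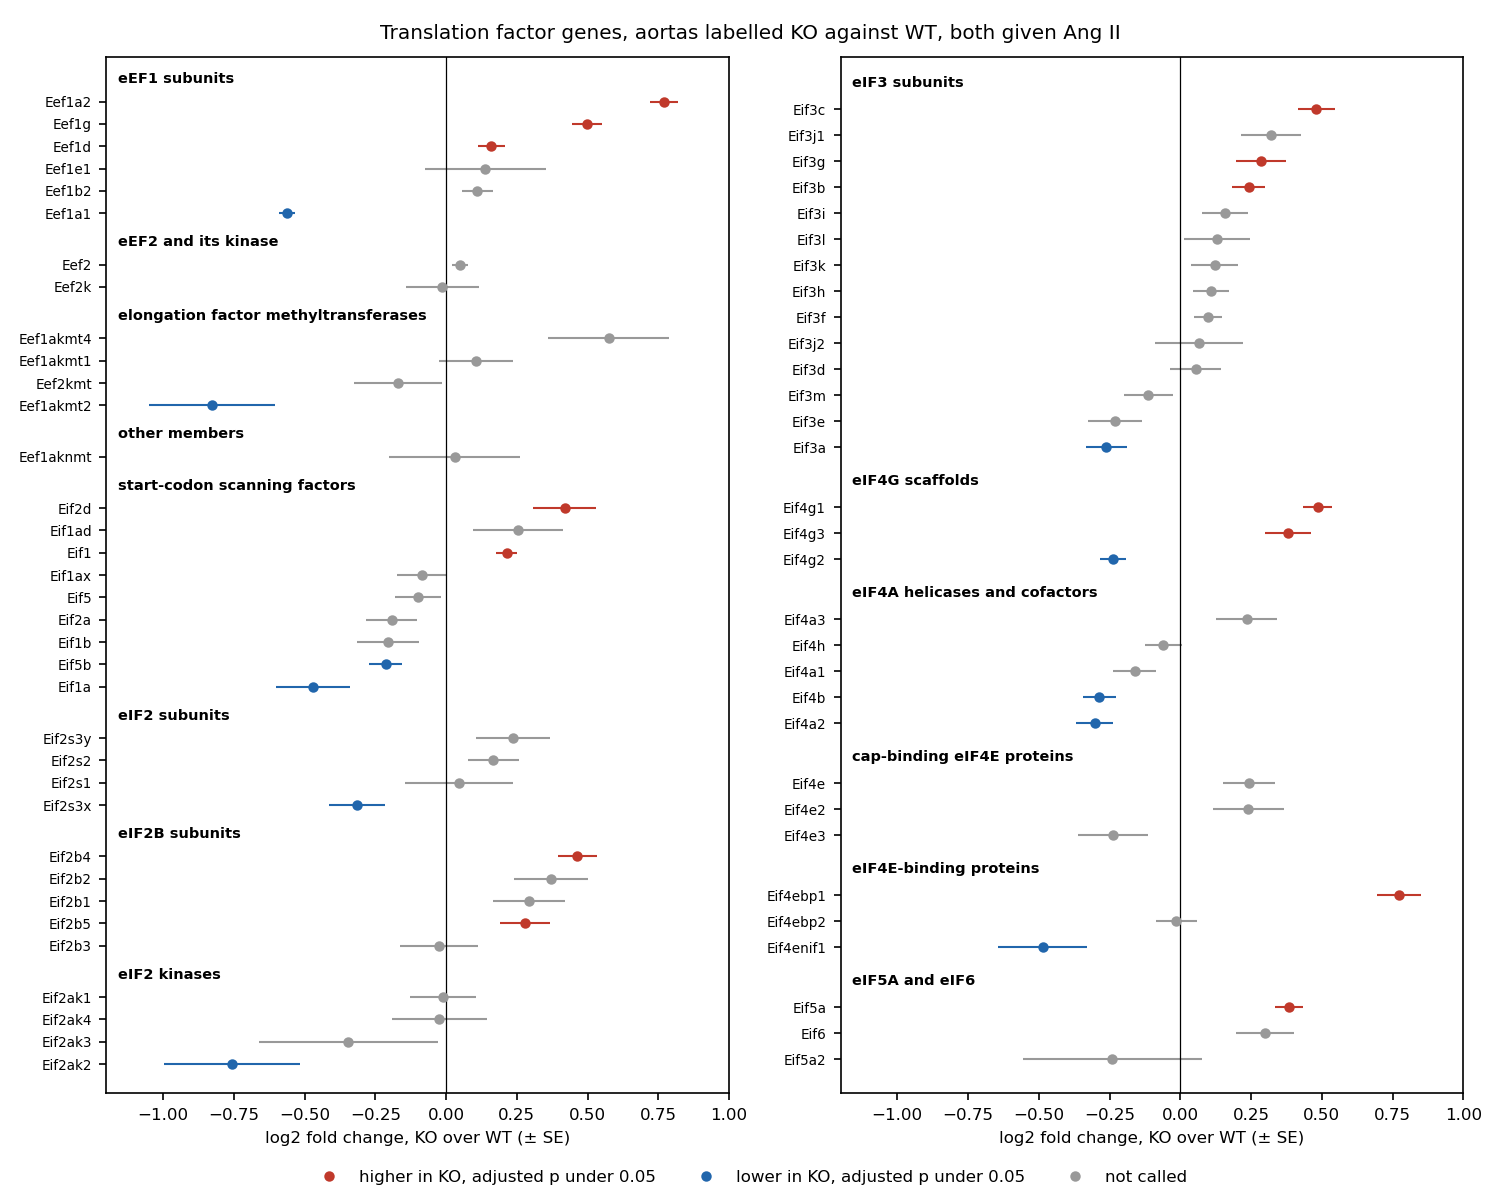
Log2 fold change of each of the 66 tested members, KO over WT (x axis), grouped by role; points are estimates of edgeR's quasi-likelihood fit and bars are ± 1 SE. Red points (14) were higher and blue points (11) lower in KO libraries at an adjusted p under 0.05, and most groups hold points on both sides of 0.

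The 6 genes named for eEF1 moved in opposite directions, 3 higher and 1 lower. Eef1a2, the muscle form of eEF1A, had 219, 215 and 197 CPM in KO libraries, against 121, 123 and 126 CPM in WT libraries. Eef1a1, the widely expressed form, had 957, 967 and 954 CPM in KO libraries, against 1428, 1375 and 1449 CPM in WT libraries. For both genes the groups were far apart, with all KO libraries above for Eef1a2 and below for Eef1a1. Eef1a2 rose by 0.77 on the log2 scale (1.71-fold, SE 0.050, adjusted p = 1.7e-06), and Eef1a1 fell by 0.56 (SE 0.029, adjusted p = 2.7e-07). Per length, Eef1a2 averaged 96.4 ± 8.39 FPKM in KO and 50.9 ± 3.40 FPKM in WT libraries, and Eef1a1 averaged 367 ± 13.5 FPKM in KO and 489 ± 35.9 FPKM in WT libraries (SD, n = 3 each). Eef1a1 was the more abundant form in all 6 libraries.

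The nucleotide exchange subunits of eEF1B were higher in KO libraries or overlapped. Eef1g, which anchors the exchange complex, had 252, 253 and 249.8 CPM in KO libraries, against 171, 169.6 and 194 CPM in WT libraries. The groups did not overlap, and the gene rose by 0.50 on the log2 scale (SE 0.053, adjusted p = 7.2e-05). Eef1d, an exchange subunit, had 128, 129 and 129 CPM in KO libraries, against 112, 113 and 121 CPM in WT libraries. It rose by 0.16 (SE 0.048, adjusted p = 0.034), and the call was lost without KO library 1, 2 or 3 or WT library 1 or 2 (adjusted p up to 0.13). With a library left out the log2 fold change stayed between 0.138 and 0.196. On FPKM divided by median-ratio factors it was 0.09 and not called by limma (adjusted p = 0.25). Eef1d overlaps Naprt on the same strand by 277 bases, and Naprt had up to 1052 counts. Eef1b2, the other exchange subunit, had 164, 143 and 154 CPM in KO libraries, against 139.8, 141 and 146 CPM in WT libraries. These ranges overlapped, and the log2 fold change of 0.11 was not called (adjusted p = 0.19). Eef1e1, which belongs to the tRNA synthetase complex, had 3.48, 5.21 and 3.54 CPM in KO libraries, against 3.50, 3.44 and 4.17 CPM in WT libraries, and its log2 fold change of 0.14 was not called (adjusted p = 0.71).

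Eef2, the translocase, had 782, 772 and 759 CPM in KO libraries, against 743, 752 and 739 CPM in WT libraries. All KO libraries lay above the WT libraries, but the log2 fold change was 0.05 (SE 0.029) and was not called (adjusted p = 0.26). Its kinase Eef2k, which halts elongation by phosphorylating eEF2, had 7.48, 7.84 and 9.22 CPM in KO libraries, against 7.95, 8.25 and 8.55 CPM in WT libraries. The KO range enclosed the WT range (log2 fold change -0.01, adjusted p = 0.96). Among the enzymes that methylate elongation factors, 1 of 5 tested was called. Eef1akmt2, a lysine methyltransferase of eEF1A, had 2.75, 2.29 and 1.997 CPM in KO libraries, against 3.52, 4.09 and 4.87 CPM in WT libraries. It fell by 0.83 on the log2 scale (SE 0.223, adjusted p = 0.022). That call was lost without KO library 2 or 3 or WT library 2 or 3 (adjusted p up to 0.086), and the gene lies across 25217 bases of Fgfr2 on the same strand, which had up to 107 counts. Eef1akmt4 did not overlap between the groups, at 3.33 ± 0.283 CPM in KO and 2.23 ± 0.171 CPM in WT libraries, but was not called (adjusted p = 0.083). Log2 fold changes were 0.11 for Eef1akmt1, 0.03 for Eef1aknmt and -0.17 for Eef2kmt, and none of these 3 was called (adjusted p from 0.50 to 0.95).

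**Figure D2:**
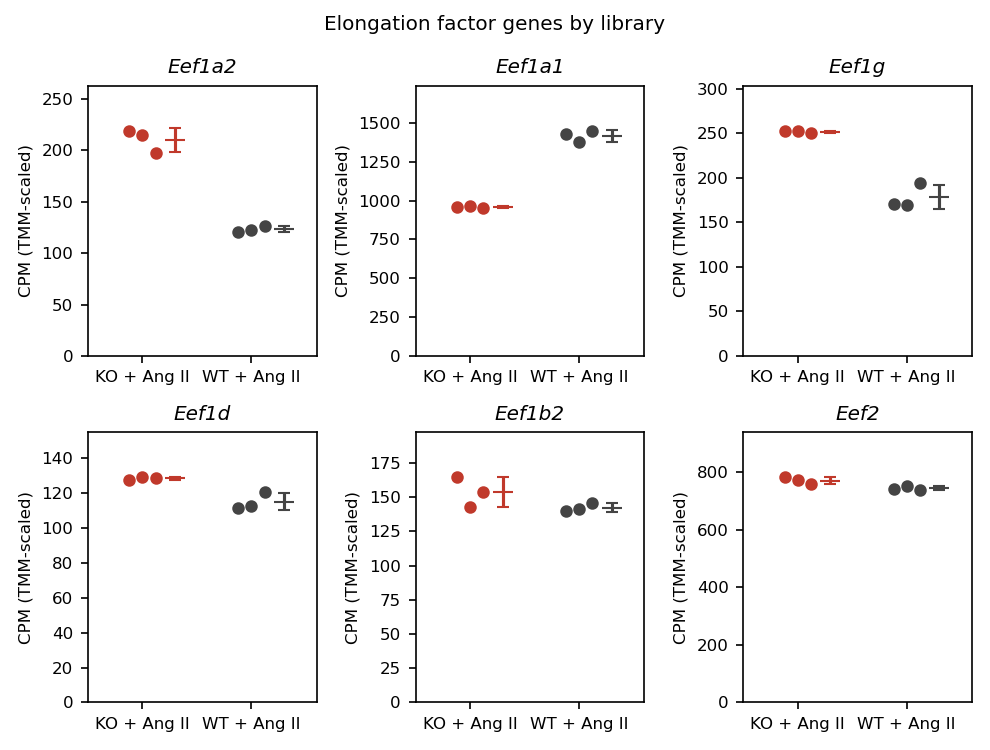
CPM (y axis, from 0) of 6 elongation factor genes in each library; dots are libraries, and the bars beside them are the mean ± SD of the 3 KO or 3 WT libraries. Eef1a2 and Eef1a1 separate in opposite directions, while Eef2 differs by little.

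Shares within a family do not depend on how libraries were scaled. Eef1a2 made up 21.5%, 21% and 19.8% of the summed FPKM of Eef1a1 and Eef1a2 in KO libraries, against 9.21%, 9.63% and 9.44% in WT libraries. The means were 20.8 ± 0.856% in KO and 9.42 ± 0.211% in WT libraries (SD, n = 3 each), a difference of 11.4 percentage points. The KO share lay above the WT share in every library, with an exact two-sided permutation p of 0.10, the smallest that 3 against 3 libraries allows (0.14 adjusted over 7 families). The sum itself, total eEF1A, was 485, 463 and 442 FPKM in KO libraries, against 539, 502 and 579.7 FPKM in WT libraries, so it too did not overlap (463 ± 21.8 and 540.0 ± 39.1 FPKM, exact p = 0.10). Eef1a1 alone held 19.7% to 20.1% of all members' counts in KO libraries and 27.8% to 29.0% in WT libraries. All members together held 1.5% to 1.51% of counts outside mitochondrial genes and copies in KO libraries and 1.71% to 1.74% in WT libraries. Their sum depended on the scale, at 4752 to 4863 CPM in KO and 4931 to 4998 CPM in WT libraries. In FPKM it was 1420 to 1567 in KO and 1299 to 1463 in WT libraries, which overlap. Eef1a1 weighs heavily in the CPM sum, at a mean of 959 CPM in KO and 1417 CPM in WT libraries. Of the 66 tested members, 38 had positive and 28 negative log2 fold changes.

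Of the 6 other families, 4 had shares that did not overlap between groups, each with an exact permutation p of 0.10 (0.14 adjusted). Eif4ebp1 made up 65.0 ± 1.247% of the FPKM of the 4E-binding protein genes in KO libraries and 52.0 ± 2.85% in WT libraries. Eif4e3, an atypical cap-binding protein, made up 39.2 ± 1.78% of the FPKM of the eIF4E genes in KO libraries and 47.4 ± 2.40% in WT libraries. Eif2s3y made up 67.1%, 67.3% and 67.1% of the FPKM of the X and Y pair in KO libraries, against 55.9%, 63.0% and 54.7% in WT libraries. Eif1b made up 7.21 ± 0.292% of the FPKM of Eif1 and Eif1b in KO libraries and 9.41 ± 0.975% in WT libraries. The shares of Eif5a2 (0.77 ± 0.088% in KO, 1.18 ± 0.349% in WT) and of Eif4a2 (58.0 ± 1.87% in KO, 60.3 ± 2.11% in WT) overlapped between groups (exact permutation p = 0.20 and 0.30).

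**Figure D3:**
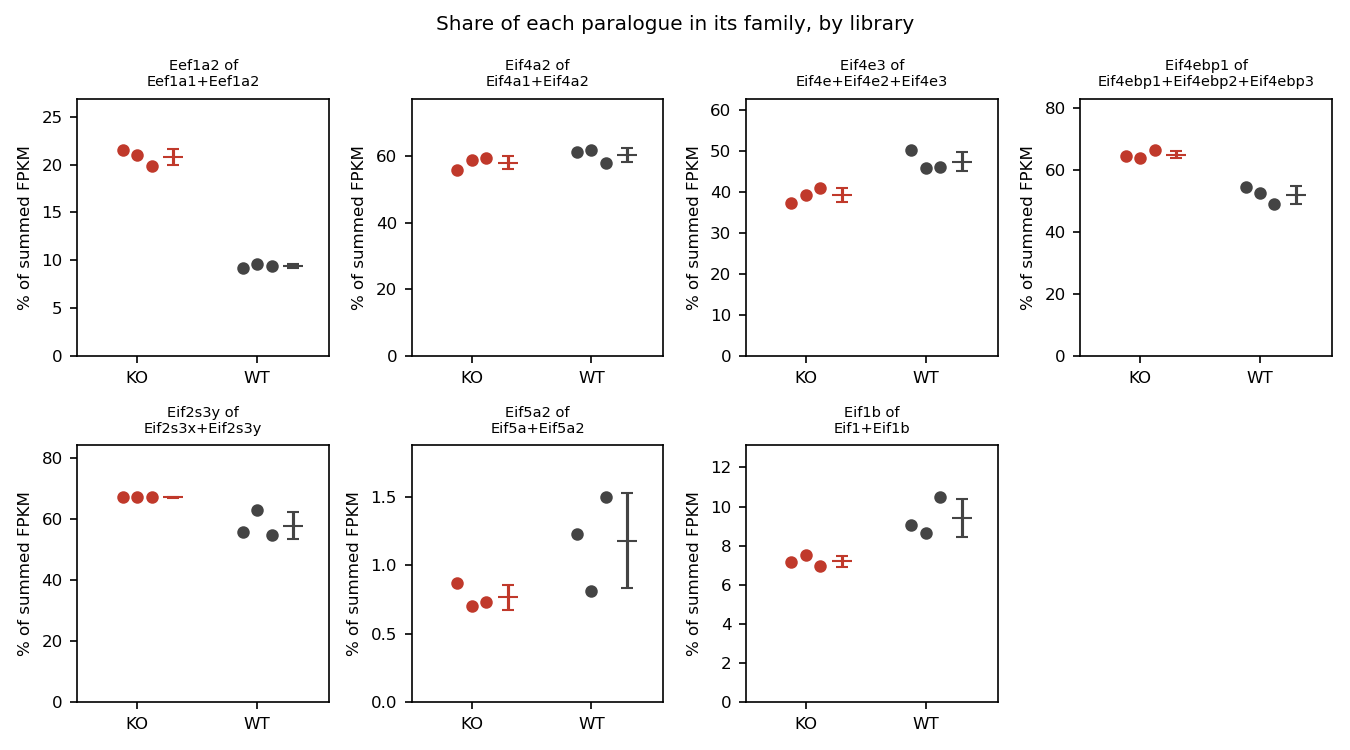
Share of a paralogue in the summed FPKM of its family (y axis, percent, from 0) in each library, for 7 families; dots are libraries and bars the mean ± SD of 3. Eef1a2 is at 19.8% to 21.5% in KO and 9.21% to 9.63% in WT libraries, and the shares of Eif4a2 and Eif5a2 overlap.

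Factors that scan for and select the start codon moved in both directions, 2 of 9 higher and 2 lower. Eif1, which guards the choice of start codon and was the third member above 100 FPKM beside Eef1a1 and Eef2, had 305, 299 and 301 CPM in KO libraries, against 266, 256 and 258 CPM in WT libraries. The groups did not overlap, and Eif1 rose by 0.21 on the log2 scale (SE 0.036, adjusted p = 0.0017), or by 0.15 without a call on FPKM divided by median-ratio factors (adjusted p = 0.066). Eif2d, which can deliver tRNA without GTP and takes part in reinitiation, had 12.8, 13.5 and 11.7 CPM in KO libraries, against 8.98, 10.3 and 9.19 CPM in WT libraries. It rose by 0.42 (SE 0.112, adjusted p = 0.021), a call lost without KO library 1 or 2 or WT library 1 or 3 (adjusted p up to 0.084). Eif5b, the GTPase that joins the ribosomal subunits, had 74.1, 72.2 and 70.2 CPM in KO libraries, against 81.2, 80.8 and 89.2 CPM in WT libraries. It fell by 0.21 (SE 0.059, adjusted p = 0.023), and the call was lost without KO library 2 or 3 or WT library 3 (adjusted p up to 0.091). On FPKM as deposited its decrease was 0.06 and not called by limma (adjusted p = 0.66). With FPKM divided by median-ratio factors the decrease was 0.24 and called by limma (adjusted p = 0.022). Rev1, on the opposite strand, overlaps 2794 bases of Eif5b and had up to 537 counts. Eif1a, which opens the subunit for scanning, had 8.64, 10.6 and 7.84 CPM in KO libraries, against 12.03, 12.3 and 13.2 CPM in WT libraries. It fell by 0.47 (SE 0.130, adjusted p = 0.024), and the call was lost without KO library 1 or 3 or any WT library (adjusted p up to 0.087). On FPKM as deposited the decrease of Eif1a was 0.23 and not called by limma (adjusted p = 0.10). With FPKM divided by median-ratio factors it was 0.38 and called by limma (adjusted p = 0.014). The groups did not overlap for Eif2d, Eif5b or Eif1a. Eif1ax, the close paralogue of Eif1a, overlapped between groups (log2 fold change -0.08, adjusted p = 0.57), as did Eif1b (-0.21, 0.22), Eif5 (-0.10, 0.45) and Eif1ad (0.26, 0.31). Eif2a did not overlap, at 15.6 ± 1.0 CPM in KO and 17.8 ± 0.337 CPM in WT libraries, but was not called (adjusted p = 0.17).

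Among the subunits of eIF2, the carrier of initiator tRNA, 1 of 4 was called. Eif2s3x had 13.4, 12.2 and 14.0 CPM in KO libraries, against 15.4, 16.7 and 17.2 CPM in WT libraries. It fell by 0.32 on the log2 scale (SE 0.099, adjusted p = 0.044). That call was lost when any 1 of the 6 libraries was left out (adjusted p up to 0.15). On FPKM as deposited its decrease was 0.13 and not called by limma (adjusted p = 0.26). With FPKM divided by median-ratio factors Eif2s3x fell by 0.295 and was called by limma (adjusted p = 0.015). Its Y-linked counterpart Eif2s3y had 29.8, 27.3 and 31.1 CPM in KO libraries, against 21.3, 31.0 and 22.7 CPM in WT libraries. WT library 2 lay within the KO range, and the log2 fold change of 0.24 was not called (adjusted p = 0.25). Without that library it was 0.42 and called (adjusted p = 0.016), as it was on FPKM as deposited (0.35, adjusted p = 0.043). Reads of Y-linked genes were present in every library, while Xist, the X-inactivation RNA, had 27 counts in KO library 3 and 0 in the other 5. Eif2s1, the alpha subunit that stress kinases phosphorylate, was at 10.2 ± 0.881 CPM in KO and 9.94 ± 2.83 CPM in WT libraries (adjusted p = 0.91). Eif2s2, the beta subunit, was at 29.5 ± 1.81 CPM in KO and 26.3 ± 2.33 CPM in WT libraries (adjusted p = 0.23).

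The exchange factor eIF2B, which recharges eIF2 with GTP, had 2 of 5 subunits higher. Eif2b4 had 43.0, 43.3 and 40.5 CPM in KO libraries, against 30.1, 31.2 and 30.6 CPM in WT libraries. The groups were clearly separate, and it rose by 0.46 on the log2 scale (SE 0.068, adjusted p = 0.00063). It overlaps 204 bases of Snx17 on the opposite strand, which had up to 1528 counts. Eif2b5, the catalytic subunit, had 46.2, 41.3 and 38.6 CPM in KO libraries, against 33.3, 33.0 and 37.5 CPM in WT libraries. It rose by 0.28 (SE 0.087, adjusted p = 0.042). That call was lost without KO library 1 or 2 or WT library 1 or 2 (adjusted p up to 0.17). Limma called it on FPKM as deposited (0.40, adjusted p = 0.027) but not on FPKM divided by median-ratio factors (0.20, adjusted p = 0.11). Eif2b2 and Eif2b1 also lay wholly above in KO libraries without being called (log2 fold changes 0.37 and 0.29, adjusted p = 0.069 and 0.14), and Eif2b3 overlapped (-0.02, adjusted p = 0.94).

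Of the 4 eIF2 kinases, 1 was called. Eif2ak2, the interferon-induced kinase PKR, had 2.30, 2.16 and 3.76 CPM in KO libraries, against 4.65, 4.28 and 4.97 CPM in WT libraries. The groups did not overlap, although KO library 3 lay nearer the WT range than the other 2. It fell by 0.76 on the log2 scale (SE 0.240, adjusted p = 0.046), a call lost without KO library 1 or 2 or any WT library (adjusted p up to 0.15). The haem-regulated Eif2ak1, the endoplasmic reticulum kinase Eif2ak3 and the amino-acid sensor Eif2ak4 overlapped between groups (log2 fold changes -0.01, -0.35 and -0.02, adjusted p from 0.50 to 0.97). Downstream of the kinases, the stress factor Atf4 was at 63.1 ± 2.25 CPM in KO and 60.6 ± 2.47 CPM in WT libraries (log2 fold change 0.06, adjusted p = 0.55). On FPKM as deposited it was called higher by limma (0.20, adjusted p = 0.044), and on FPKM divided by median-ratio factors its log2 fold change was -0.003. The eIF2 phosphatase subunits Ppp1r15a and Ppp1r15b likewise overlapped (log2 fold changes -0.13 and -0.16, adjusted p = 0.62 and 0.31).

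The eIF3 scaffold, which binds the small ribosomal subunit, had 3 of 14 genes higher and 1 lower. Eif3c, a core subunit, had 63.8, 61.99 and 62 CPM in KO libraries, against 45.8, 46.9 and 41.8 CPM in WT libraries. It rose by 0.48 on the log2 scale (SE 0.064, adjusted p = 0.00034) with no overlap. Eif3b, another core subunit, had 72.3, 75.0 and 73.6 CPM in KO libraries, against 63.9, 58.7 and 64.2 CPM in WT libraries. It rose by 0.24 (SE 0.058, adjusted p = 0.012). That call was lost without KO library 2 or WT library 2 (adjusted p up to 0.058). Limma called Eif3b on FPKM as deposited (0.37, adjusted p = 0.011) but not on FPKM divided by median-ratio factors (0.17, adjusted p = 0.069). Eif3g had 27.2, 25.5 and 26.4 CPM in KO libraries, against 23.4, 21.6 and 20.0 CPM in WT libraries, and rose by 0.29 (SE 0.087, adjusted p = 0.039). That call was lost without KO library 1, 2 or 3 or WT library 2 or 3 (adjusted p up to 0.12). Limma called Eif3g on FPKM as deposited (0.40, adjusted p = 0.0065) but not on FPKM divided by median-ratio factors (0.21, adjusted p = 0.06). Eif3a, the largest subunit and the platform of the complex, went the other way, with 32.9, 35.9 and 35.3 CPM in KO libraries, against 42.3, 39.6 and 42.8 CPM in WT libraries. It fell by 0.26 (SE 0.071, adjusted p = 0.022), and the call was lost without KO library 1 or 3 or WT library 1 or 3 (adjusted p up to 0.093). On FPKM as deposited its decrease was 0.09 and not called by limma (adjusted p = 0.40). With FPKM divided by median-ratio factors the decrease was 0.26 and called by limma (adjusted p = 0.017). The remaining 10 genes were not called. Of these, Eif3j1 (log2 fold change 0.32, adjusted p = 0.053) and Eif3f (0.10, 0.21) lay wholly above in KO libraries and 8 overlapped, among them Eif3e (-0.23, 0.12) and Eif3m (-0.11, 0.41). Summed over its 14 genes, eIF3 reached 644 to 661 CPM in KO and 597 to 609 CPM in WT libraries.

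Of the 3 eIF4G genes, 2 were higher and 1 lower. Eif4g1, the main eIF4G scaffold, had 97.1, 97.8 and 92.5 CPM in KO libraries, against 69.3, 68.4 and 67.5 CPM in WT libraries. Eif4g3, a second full-length scaffold, had 42.5, 39.4 and 41.7 CPM in KO libraries, against 29.6, 34.9 and 30.5 CPM in WT libraries. Both rose without overlap, by 0.49 (SE 0.051, adjusted p = 6.4e-05) and 0.38 (SE 0.081, adjusted p = 0.0065) on the log2 scale. Eif4g2, the shorter relative that lacks the eIF4E-binding region and serves cap-independent initiation, had 212, 219 and 227 CPM in KO libraries, against 253, 272 and 250.1 CPM in WT libraries. It fell by 0.24 (SE 0.046, adjusted p = 0.0038), also without overlap. On the FPKM values as deposited its decrease was 0.08 and not called (adjusted p = 0.36), whereas on FPKM divided by median-ratio factors it was 0.29 (adjusted p = 0.013).

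The helicase group had 2 of 5 members lower. Eif4a2, an eIF4A paralogue, had 77.1, 80.0 and 74.2 CPM in KO libraries, against 101, 97.9 and 86.8 CPM in WT libraries. Eif4b, which stimulates the helicase, had 82.2, 77.9 and 73.4 CPM in KO libraries, against 95.5, 97.5 and 91.8 CPM in WT libraries. Neither overlapped, and they fell by 0.30 (SE 0.065, adjusted p = 0.0068) and 0.29 (SE 0.058, adjusted p = 0.0049) on the log2 scale. On FPKM as deposited these decreases were 0.14 and 0.13 and were not called (adjusted p = 0.19 and 0.26), and on FPKM divided by median-ratio factors they were 0.34 and 0.33 (adjusted p = 0.011 and 0.0069). Eif4a1, the paralogue of Eif4a2, had 49.4, 45.8 and 41.1 CPM in KO libraries, against 51.7, 49.3 and 51.4 CPM in WT libraries. KO library 1 lay within the WT range, and the log2 fold change of -0.16 was not called (adjusted p = 0.17). Eif4a3, of the exon junction complex, and Eif4h, a helicase cofactor, overlapped as well (log2 fold changes 0.23 and -0.06, adjusted p = 0.15 and 0.58).

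Eif4e, which binds the cap, had 26.8, 27.1 and 30.3 CPM in KO libraries, against 23.1, 25.9 and 22.1 CPM in WT libraries. The groups did not overlap, but the log2 fold change of 0.24 (SE 0.092) was not called in the count test (adjusted p = 0.086). DESeq2 called it higher (0.25, adjusted p = 0.013), as did limma on log2(FPKM + 1) with FPKM as deposited (0.32, adjusted p = 0.010). Eif4e2, a cap-binding repressor, had 16.2, 19.7 and 14.7 CPM in KO libraries, against 14.2, 15.6 and 12.9 CPM in WT libraries, and Eif4e3 had 9.94, 11.6 and 12.2 CPM in KO libraries, against 14.5, 13.6 and 11.6 CPM in WT libraries. Both overlapped (log2 fold changes 0.24 and -0.24, adjusted p = 0.22 and 0.21). Eif4ebp1, the 4E-BP1 repressor that mTORC1 releases from eIF4E by phosphorylation, had 41.0, 37.9 and 39.2 CPM in KO libraries, against 24.2, 23.3 and 21.6 CPM in WT libraries. It rose by 0.77 on the log2 scale (1.71-fold, SE 0.078, adjusted p = 4.4e-05), with every KO library far above every WT library. Eif4ebp2, the related repressor, had 59.3, 53.9 and 52.4 CPM in KO libraries, against 52.2, 55.4 and 59.5 CPM in WT libraries, and the ranges nearly coincided (log2 fold change -0.01, adjusted p = 0.92). Eif4enif1, which carries eIF4E into the nucleus, had 11.96, 8.29 and 10.1 CPM in KO libraries, against 11.7, 15.5 and 15.5 CPM in WT libraries. It fell by 0.49 (SE 0.157, adjusted p = 0.049) although the ranges overlapped. That call was lost without KO library 2 or 3 or WT library 2 or 3 (adjusted p up to 0.16). On FPKM as deposited its decrease was 0.21 and not called by limma (adjusted p = 0.20). With FPKM divided by median-ratio factors Eif4enif1 fell by 0.345 and was called by limma (adjusted p = 0.046). Drg1, on the opposite strand, covers 42195 bases of it and had up to 1533 counts, and whether counting used strand is unknown here.

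**Figure D4:**
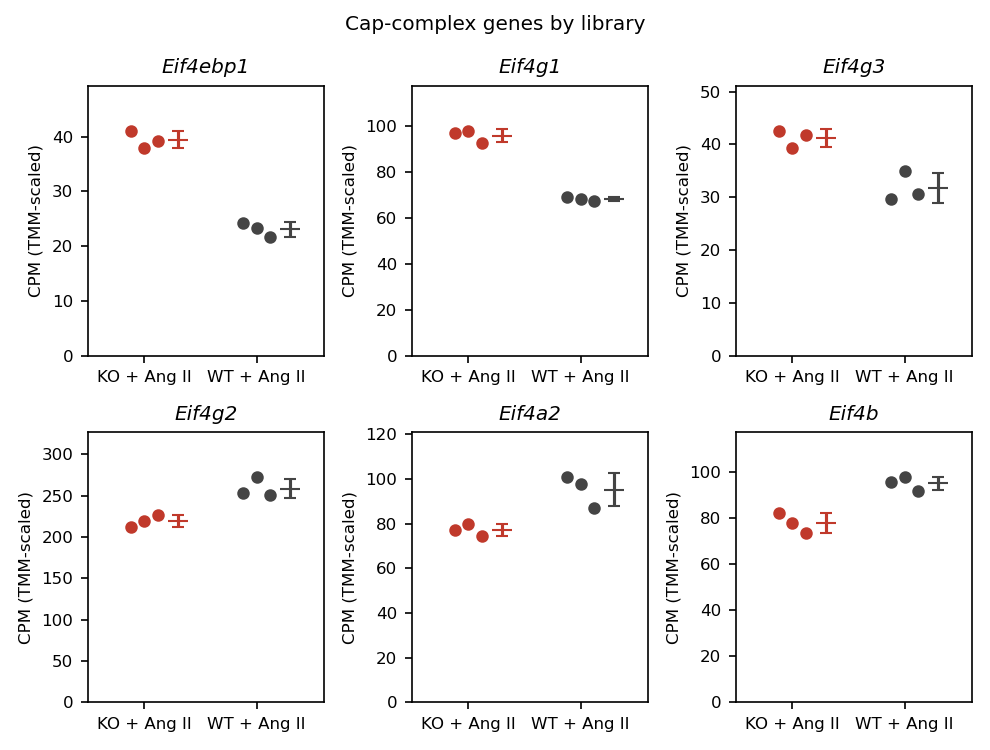
CPM (y axis, from 0) in each library of 6 genes of the cap complex or related to it. Dots are libraries and the bars beside them the mean ± SD of 3. Eif4ebp1, Eif4g1 and Eif4g3 lie higher in KO libraries, and Eif4g2, Eif4a2 and Eif4b lie lower, with no overlap in any of the 6.

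Eif5a, which frees ribosomes stalled at proline-rich stretches and needs the modified residue hypusine, had 106, 101 and 101 CPM in KO libraries, against 79.8, 78.4 and 78.2 CPM in WT libraries. The groups were well separated, and Eif5a rose by 0.38 on the log2 scale (SE 0.049, adjusted p = 0.00026). Its paralogue Eif5a2 had 1.97, 1.52 and 1.58 CPM in KO libraries, against 2.12, 1.35 and 2.53 CPM in WT libraries, and overlapped (adjusted p = 0.66). Both enzymes that make hypusine were higher in KO libraries. Dhps, which performs the initial step, averaged 11.9 ± 1.91 CPM in KO and 7.42 ± 0.966 CPM in WT libraries (log2 fold change 0.68, adjusted p = 0.0077). Dohh, which completes it, had 20.9, 23.1 and 18.9 CPM in KO libraries, against 16.1, 13.7 and 14.2 CPM in WT libraries (adjusted p = 0.0057). Eif6, which keeps the ribosomal subunits apart, had no overlap, at 20.8 ± 1.05 CPM in KO and 17.0 ± 1.86 CPM in WT libraries, but was not called (adjusted p = 0.063).

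Genes that act on or beside these factors, mitochondrial translation factors among them, were counted over lists of 53 partner symbols. Of these, 52 were matched in the table and tested. In KO libraries 18 were higher and 0 lower in edgeR's test, with a median log2 fold change of 0.13, against -0.02 over all tested genes. The higher share was 34.6%, against 11.5% of all tested genes, and for those with a mean of at least 10 CPM it was 48.5% of 33 partners, against 27.7% of all such genes. The partner lists were chosen with earlier results of these data known, so these shares are not an independent test. At an unadjusted p under 0.05 the counts were 21 higher and 4 lower, and DESeq2 called 1 lower, Pabpc1. In the signalling chain to the cap complex 5 of 10 were higher. The kinase gene Mtor had 21.5, 18.8 and 22.3 CPM in KO libraries, against 11.3, 9.87 and 11.7 CPM in WT libraries, and rose by 0.93 on the log2 scale (SE 0.109, adjusted p = 0.00013). Mknk2, which encodes a kinase of eIF4E, had 202, 200.3 and 195 CPM in KO libraries, against 120.4, 129.5 and 119 CPM in WT libraries, and rose by 0.69 (SE 0.047, adjusted p = 2e-06). Neither overlapped between groups. The related kinase gene Mknk1 was at 4.65 ± 0.733 CPM in KO and 6.16 ± 0.848 CPM in WT libraries and was not called (adjusted p = 0.14). Rptor, a subunit of the mTOR complex, and Tsc1 and Tsc2, which restrain that complex, were also higher (log2 fold changes 0.45, 0.60 and 0.33, adjusted p from 0.0089 to 0.016). The partner genes that rose in this chain thus include both activators and inhibitors of the pathway.

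Among 10 mitochondrial translation factors 3 were higher. Tufm, the mitochondrial counterpart of eEF1A, averaged 116 ± 3.43 CPM in KO and 87.2 ± 3.23 CPM in WT libraries (log2 fold change 0.41, adjusted p = 0.00023). Gfm1 and Gfm2, the mitochondrial elongation and recycling factors, rose by 0.45 and 0.49 (adjusted p = 0.0083 and 0.0044). In the 7 genes for diphthamide, the modification of eEF2, Dph3 alone was called, at 36.0 ± 3.23 CPM in KO and 26.1 ± 1.54 CPM in WT libraries (adjusted p = 0.0036). The median log2 fold change of the 7 was -0.215, with 2 positive and 5 negative. Dnajc24 (-0.73, adjusted p = 0.14) and Dph1 (-0.55, 0.35) lay wholly below in KO libraries without being called. Of 6 release and rescue factors Etf1 and Hbs1l were higher (both by 0.33, adjusted p = 0.011), calls lost without KO library 3 for Etf1 (adjusted p = 0.052) and without KO library 1 for Hbs1l (0.053). Of 7 scanning and reinitiation genes, Dhx29, Mcts1 and Abcf1 were higher (log2 fold changes 0.55, 0.45 and 0.22). The call of Mcts1 was lost without KO library 3 or WT library 3 (adjusted p = 0.052 and 0.056). Of 5 poly(A)-binding proteins and regulators Pabpc4 was higher (0.24, adjusted p = 0.016), and that call was lost without KO library 1 or WT library 1 or 2 (adjusted p from 0.056 to 0.072). Pabpc1, the main poly(A)-binding protein, was at 77.2 ± 6.15 CPM in KO and 87.5 ± 4.04 CPM in WT libraries and was not called (adjusted p = 0.087), although DESeq2 called it lower (log2 fold change -0.18, adjusted p = 0.015). The valyl-tRNA synthetase gene Vars, whose product binds eEF1, was just past the threshold (0.41, adjusted p = 0.049) and lost its call without any 1 of the KO libraries or WT library 1 or 2 (adjusted p up to 0.18).

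The balance of higher and lower members changed with the scale of the values. Limma on log2(FPKM + 1), with FPKM as deposited, called 23 of 61 tested members higher and 2 lower, against 32.6% higher and 8.38% lower of 8101 genes. On that scale the median log2 fold change of all genes was 0.15, against -0.02 in the count test, and 79.6% of all calls were higher in KO libraries, against 52.1%. With FPKM divided by median-ratio factors the all-gene median was 0.00. There 10 of 60 tested members were higher and 10 lower, against 1423 higher and 1418 lower of 8074 genes. Of the 25 called members, 9 were called in the same direction under all 18 alternatives: Eef1a1, Eef1a2, Eef1g, Eif2b4, Eif3c, Eif4ebp1, Eif4g1, Eif4g3 and Eif5a. Leaving out each library in turn kept 9 of the higher calls and 4 of the lower ones (Eef1a1, Eif4a2, Eif4b and Eif4g2) in every fit, and 0 of the 25 changed direction. Without KO library 2, 9 members were higher, and the count of lower members was 7, 6 and 5 without KO library 1, 2 and 3, and 8, 7 and 4 without WT library 1, 2 and 3.

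**Figure D5:**
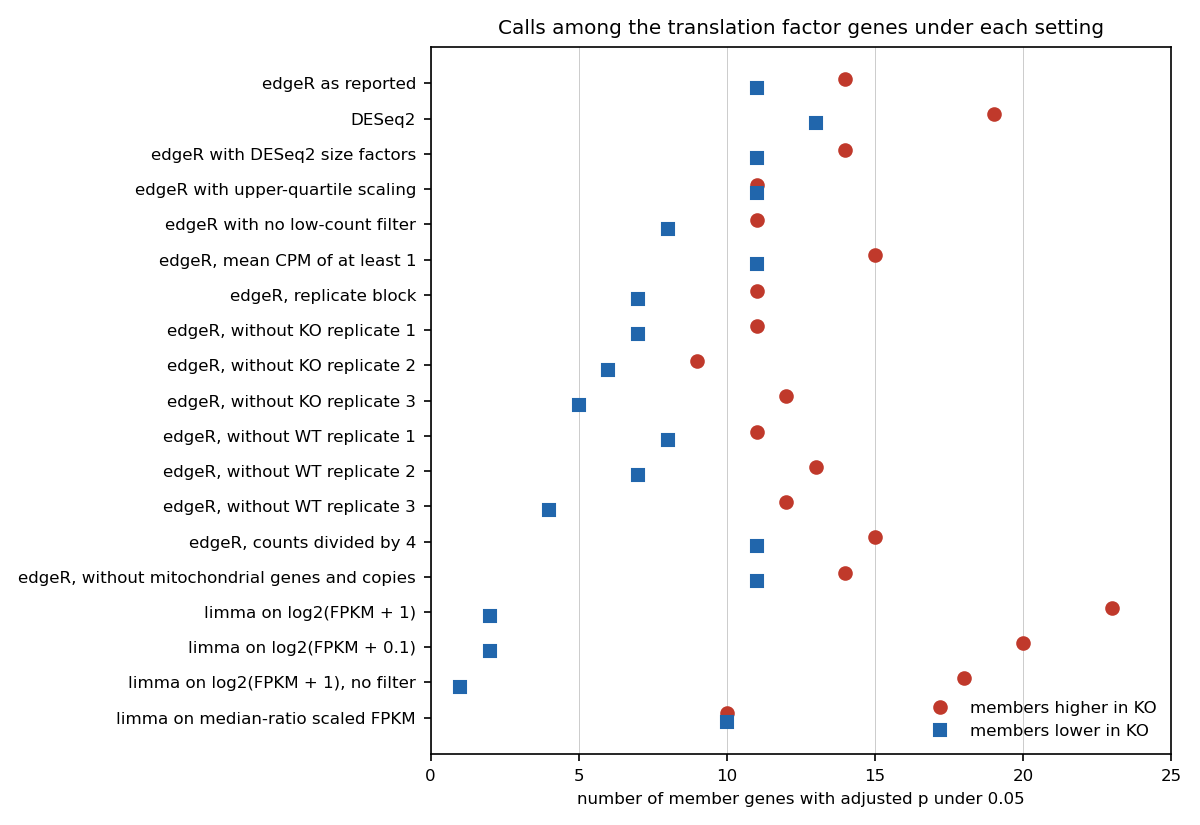
Number of members with an adjusted p under 0.05 (x axis) under each setting (y axis); red circles are members higher and blue squares members lower in KO libraries. The count test gives 14 and 11, and FPKM as deposited gives 23 and 2.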

How the data were processed

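Poly(A) RNA of aorta was sequenced with paired ends in 6 libraries, per the labels' protocols, which also speak of an adipose type. The authors deposited whole-number gene counts without normalization and FPKM per the file headers. The counting program, its strand setting and the FPKM method were not found in the labels. Bowtie 0.12.2, HISAT2 2.0 and the build mm8 are listed, per the submitters' processing notes. Coordinates of 63 of the 71 members equalled GENCODE M21 on GRCm38, so that build is named. Of low counts, 33.0% to 34.9% were multiples of 4, against 25% by chance, so nominal totals may overstate the independent fragments.

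The count test was edgeR 4.0.16 in R 4.3.3, with filterByExpr, TMM scaling and the two-sided quasi-likelihood test on genotype, adjusted by Benjamini-Hochberg over all 16620 genes tested, at a threshold of 0.05. Unless another test is named, adjusted p-values and log2 fold changes (KO over WT) are from that fit. SE is the size of the log2 fold change over the square root of F. Paralogue shares used FPKM and exact two-sided permutation tests. Alternatives used DESeq2 1.42.0, other scalings and filters, a replicate block, libraries left out, and limma 3.58.1 on log2(FPKM + pseudocount). The test was run on simulated counts as a check. Every member could be named; values per library were given for eEF1, eEF2 and its kinase, the paralogue families and up to 4 called members per role, and partners with the smallest p. Of partners, others called, or not called, were named with their values after these were seen. The members and lists were chosen with earlier results of these data known. Figures were drawn with matplotlib 3.10.9.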

Additional observations from a re-analysis of the deposited data

How the results depend on the processing

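The 14 higher and 11 lower members became 9 to 13 and 4 to 8 when a library was left out, and 23 and 2 with limma on log2(FPKM + 1). The lower count was 2 with a pseudocount of 0.1, 1 with no filter on FPKM and 7 with the replicate block. The 18 higher partners stayed between 13 and 21 under all alternatives, and the 0 lower partners became 1 with DESeq2, with a mean CPM of at least 1 and with counts divided by 4. With FPKM divided by median-ratio factors limma called 10 members higher and 10 lower. The cause of these shifts was not tested. Over all tested genes, correlations of same-numbered deviations were 0.024, -0.009 and 0.018, and those of unlike-numbered libraries ran from -0.047 to 0.029. The replicate numbers thus showed no pairing over all genes, and a pairing seen in fewer genes was not tested. With the replicate block 11 members were higher and 7 lower, and the Eef1a2 share still differed by 11.4 points (exact sign-flip permutation p = 0.25, the smallest possible). Of 992 log2 changes recomputed for 56 named genes, 840 kept direction and side of the threshold, 123 lost it, 11 gained it (in Atf4, Eif2s3y, Eif4e and Pabpc1) and 18 changed sign. The sign changes were in uncalled genes. With a library left out, log2 changes ran from -0.126 to 0.193 for Eef1aknmt, -0.077 to 0.241 for Eef1e1, -0.016 to 0.343 for Eefsec, -0.106 to 0.048 for Eef2k and -0.068 to 0.036 for Eif4ebp2. In the FPKM fits (pseudocounts 1 and 0.1, then no filter) they were 0.067, 0.122 and 0.067 for Eef2k and 0.123, 0.135 and 0.123 for Eif4ebp2, and on median-ratio FPKM -0.003 for Atf4 and -0.013 for Eef2. Among members under 5 CPM in both groups, Eif2ak2 had an SE of 0.240 and Eif2ak4 of 0.167. How far depth sets these errors was not tested.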

Other observations

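The 13 rows with an Eif or Eef symbol that are not protein coding, mostly pseudogenes of the same factors, held few counts beside the members. The highest was Eif4a-ps4, with 6.81, 5.75 and 7.51 CPM in KO libraries, against 11.1, 7.25 and 8.90 CPM in WT libraries, ranges that overlapped. Eef1a1-ps1 had 1.40, 1.85 and 1.75 CPM in KO libraries, against 3.52, 2.53 and 4.36 CPM in WT libraries, so all KO libraries lay below, as for its parent gene Eef1a1. Eef2-ps2 had 3.29, 3.01 and 3.13 CPM in KO libraries, against 2.07, 2.46 and 3.16 CPM in WT libraries, and the ranges overlapped. The other 10 rows reached at most 90 counts in any library.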
